A study of Zea mays with 45 samples.

Results

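The early risers were the maize transcripts whose log2 signal gained 1 or more within 6 h of darkness beyond the usual night in every leaf zone that was sampled. Of 17555 maize probe sets on the Affymetrix array, 87 met this rule: the mean after 6 h of extended night minus the mean at the end of the night was at least 1 in the division, elongation and mature zones alike. Taken zone by zone, a gain of 1 was reached by 148 probe sets of the division zone, 193 of the elongation zone and 528 of the mature zone, and the 87 made up 58.8%, 45.1% and 16.5% of these. A probe set is a group of short probes read together for 1 transcript, and a difference of 1 on the log2 scale is a 2-fold difference in signal.

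The plants were of 1 maize genotype, genotype SL (KWS Einbeck), kept at 14 h of light and 10 h of dark. Every array carried a pool of 5 plants, and the labels do not say whether pools came from separate growth runs, so the p-values measure the spread between pools. Leaf tissue was taken as the lights went off (end of the day, called dusk here), as they were due on again (end of the night, called dawn here), and after a further 6, 14 or 24 h of night conditions. The division zone was the leaf base, 0 to 1.5 cm above the ligule, the elongation zone (elongating tissue) was the stretch from 3 to 4.5 cm, and mature leaf was the other zone. Each group had 3 arrays with values, except 2 for dusk in the elongation zone, 2 for dusk in the mature zone and 2 for the mature zone after 6 h, which makes 42 arrays in 15 groups. After 14 h the clock stood at the hour of dusk, and after 24 h at the hour of dawn.

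A leaf stores part of its daytime carbon as starch and spends it over the night. When the night outlasts that store, sugars run down, and plants shift from growth to the breakdown of protein, lipid and cell wall sugars for energy. SnRK1, a kinase active when energy is low, and bZIP transcription factors are known regulators of this shift, worked out mainly in Arabidopsis. Young growing tissue imports its sugar, whereas the mature blade makes and stores its own.

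The signals of 5 markers of mature leaf, among them the Rubisco activase gene *rca1* and the PEP carboxylase gene *pep1*, were highest in the mature zone at dusk. Of 4 division markers 3 were highest in the division zone and *his1* in the elongation zone. The elongation markers *expB4* and *tub4* were highest in the elongation zone and *xet1* in the mature zone. Arrays of 1 group correlated at 0.963 to 0.998 over all probe sets, and replicate 3 of the mature zone at dawn lay off on the first principal component, at 92.8 against 140.8 and 143.1 for the other 2. Since RNA came from whole tissue, fewer cells of a type and less RNA per cell cannot be told apart.

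Only 5 of the 87 early risers carried a gene name in the array's annotation, which names 8.27% of all probe sets. The named ones were *asn1*, asparagine synthetase, which puts nitrogen released from other amino acids onto a carrier with little carbon, and *lkrsdh1*, the bifunctional enzyme that begins lysine breakdown. Another was *GBF1*, a bZIP factor that binds the G-box, a short DNA element found in promoters of stress and light regulated genes. The remaining 2 were *AGA2* and *AGA3b*, alkaline α-galactosidases, enzymes that free galactose from raffinose-type sugars. The other 82 carried no name here and are given by probe set. All 87 fell into 86 transcript clusters by the number in their names, 1 cluster holding 2 members, and 4 had the suffixes s or x, which mark probes that may match more than 1 transcript. Many were dim before the extended night: 31 members in the division zone, 28 in elongating tissue and 15 in the mature zone had a dusk mean under 6.19, the 95th percentile of probe sets for genes absent from maize. At dawn the numbers were 23, 20 and 5, and after 14 h they were 0, 0 and 1. A difference against such a dim signal is a lower bound.

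The 6 h and dawn arrays differ in clock hour as well as in the length of darkness. No group was sampled in the light at the clock hour of 6 h, so these cannot be told apart. Because the arrays of dawn and of 6 h chose the members, the size of the rise at 6 h is a description. Its median was 1.99 in the division zone, 2.18 in elongating tissue and 2.05 in the mature zone, and the largest were 5.27, 5.26 and 4.52. The zone with the steepest rise was division for 25 members, elongation for 28 and mature for 34. For 27 members the 3 zones lay within 0.5 of each other, for 37 they differed by at least 1 and for 6 by at least 2. Just inside the rule lay Zm.11585.1.A1_at at 1.01 in the mature zone, Zm.18248.1.A1_at at 1.01 in the elongation zone and Zm.17519.1.A1_at at 1.03 in the division zone. Just outside lay *SnrK1*, a kinase gene of the energy-sensing family, at 0.96 in the division zone, Zm.3383.1.S1_at at 0.97 in the division zone and Zm.19280.1.S1_at at 0.98 in the elongation zone.

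Single arrays moved these sizes. Replicate 3 after 6 h was the highest of its group for 83 of 87 members in the division zone and 84 of 87 in the elongation zone, and without it 82 and 83 probe sets met the rule. Mature-zone replicate 1 at dawn was the highest for 73 members and at least 1 above the mean of the other 2 for 15. Without that replicate the median rise in the mature zone was 2.20, and without replicate 3 it was 1.88.

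The course of the members differed between the growth zones and the mature blade. In the division zone the median of the members' mean signals was 6.94 at dusk, 7.01 at dawn, 9.20 after 6 h, 10.38 after 14 h and 8.73 after 24 h. In the elongation zone it was 7.11, 7.19, 9.57, 10.43 and 9.10 at the same times. The mature zone had 7.76, 8.99, 11.18, 11.10 and 11.29. The medians of both growth zones thus changed little over the normal night and were highest after 14 h. The median of the mature zone was already higher at dawn and stayed level between 6 h and 24 h.

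**Figure D1:**
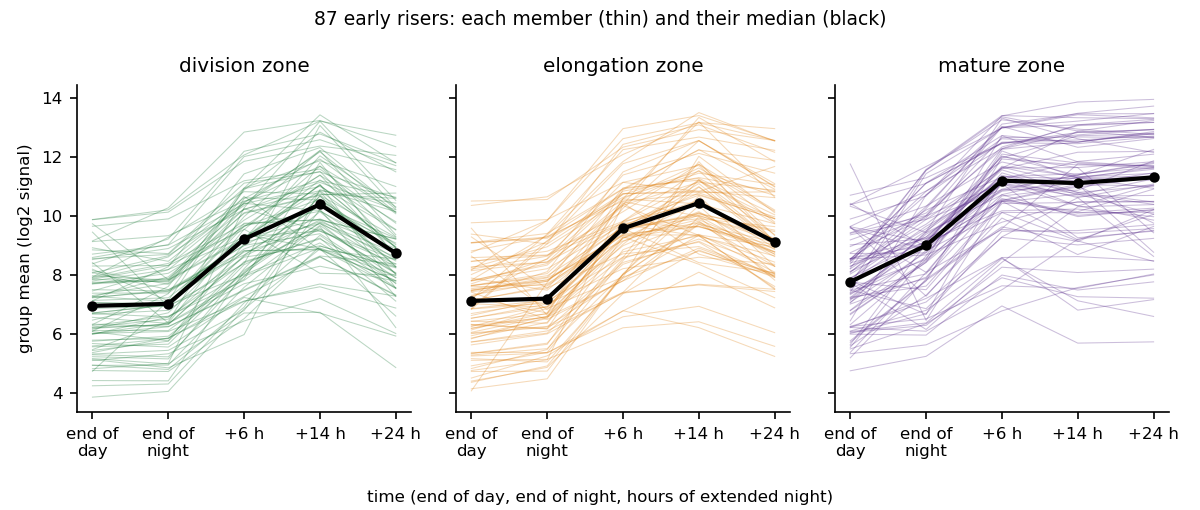
Group mean log2 signal (vertical axis) of each of the 87 early risers (thin lines) and their median (black) at 5 times (horizontal axis), 1 panel per leaf zone. The median peaks after 14 h in the division zone (10.38) and the elongation zone (10.43) and stays between 11.10 and 11.29 from 6 h on in the mature zone.

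The mean was highest after 14 h for 78 members in the division zone and 76 in elongating tissue, but for 7 in the mature zone, where 37 were highest after 6 h and 41 after 24 h. The commonest course, shown by 41 members, was highest after 14 h in both growth zones and after 24 h in the mature zone, and 26 members were highest after 14 h in the growth zones and after 6 h in the mature zone. These counts are a description, since the 6 h arrays chose the members. In the mature zone the late means lay close together. The median of 14 h minus 6 h was −0.04 there. Between 24 h and 14 h 69 members were not called. Called higher were 11.5% of the members and lower 9.20%, against 16.8% and 13.7% of the array. Over the normal night the median difference, dawn minus dusk, was 0.14 in the division zone, 0.35 in elongating tissue and 1.16 in the mature zone. The difference was above 0 for 60, 74 and 74 members, against 52.8%, 53.0% and 51.9% of the array. It was at least 1 for 6, 9 and 45 members, against 0.131%, 0.456% and 3.97% of the array. These differences share arrays with the rule and were not tested. Without replicate 1 of the mature zone at dawn the median of 1.16 was 0.89, and without replicate 3 it was 1.29.

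The arrays of 14 h and of dusk took no part in the choice and share the clock hour. Dusk tissue came from the end of the light period, so loss of light and length of darkness cannot be told apart here. After 14 h, 84 members were higher than at dusk in the division zone, 84 in elongating tissue and 83 in the mature zone (limma, adjusted p under 0.05 over all probe sets). Over the whole array 20.6%, 21.7% and 34% of probe sets were called higher in these comparisons. The median difference of the members was 3.33 in the division zone, 3.28 in elongating tissue and 3.15 in the mature zone, or 10.1-fold, 9.73-fold and 8.86-fold, while the median of all probe sets was −0.05, −0.00 and 0.11. With every signal under 6.19 raised to that level, the members' medians were 3.07, 3.13 and 3.13. A call with a difference of at least 1 was made for 84, 84 and 79 members, against 4.75%, 5.75% and 8.7% of all probe sets.

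Every 14 h array lay above every dusk array for 84 members in the division zone, 84 in elongating tissue and 83 in the mature zone, against 27.4%, 33.3% and 36.5% of all probe sets. The call was made in all 3 zones for 81 members (93.1%), against 11.3% of the array. Of 73 probe sets that met the rule of 6 h in only 2 zones, 54 (74.0%) were called higher in all 3 zones after 14 h, and of 408 that met it in the mature zone alone, 199 (48.8%) were. The corresponding counts were 6 of 18 for the division zone alone and 15 of 36 for the elongation zone alone. These shares describe groups chosen on the 6 h arrays, and the difference between them was not tested.

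**Figure D2:**
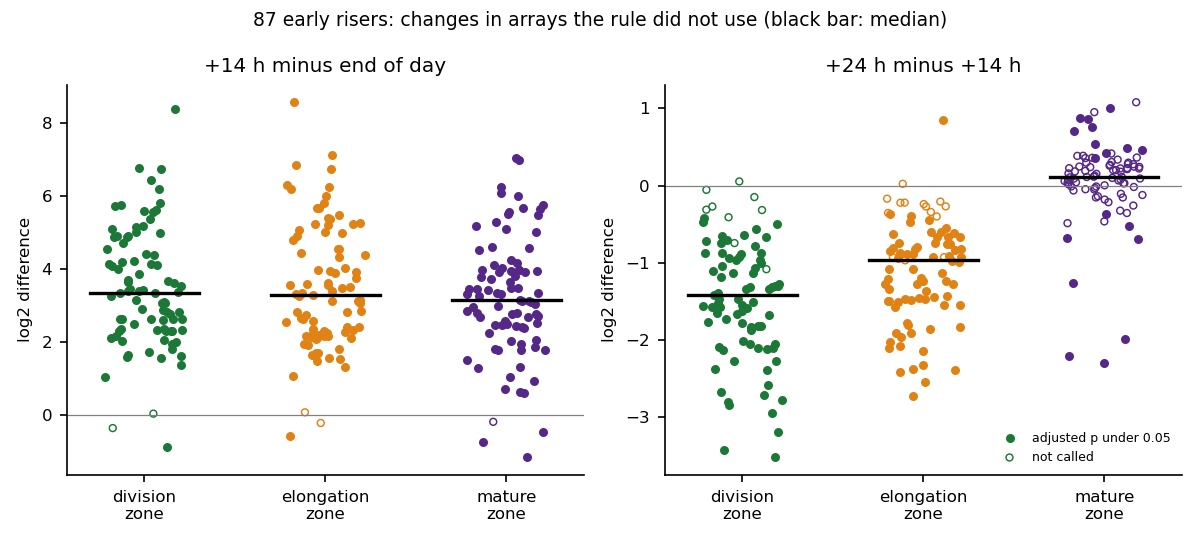
Differences in log2 signal (vertical axis) of the 87 early risers in each leaf zone (horizontal axis), 14 h minus dusk (end of day) on the left and 24 h minus 14 h on the right; filled points passed the test, open points did not, and bars are medians. The medians are near 3 in all zones on the left; on the right they are −1.42 in the division zone, −0.97 in elongating tissue and 0.11 in the mature zone.

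Among the named early risers, *asn1* had the largest difference between 14 h and dusk. Its division-zone signals were 6.80, 6.97 and 6.79 at dusk, 6.87, 7.18 and 6.73 at dawn, 7.95, 8.19 and 8.98 after 6 h, 13.02, 13.41 and 12.73 after 14 h, and 9.87, 10.53 and 10.41 after 24 h. In the elongation zone they were 6.61 and 6.23, then 6.80, 6.66 and 6.55, then 10.11, 10.21 and 11.41, then 13.39, 13.19 and 12.96, and last 10.41, 10.71 and 10.76 at the same 5 times. The elongation zone was thus far ahead of the division zone at 6 h, and the 2 zones overlapped after 14 h. In the mature zone the signals were 7.37 and 7.38 at dusk, 11.40, 8.06 and 7.87 at dawn, 11.61 and 11.61 after 6 h, 12.75, 13.18 and 12.65 after 14 h, and 13.21, 13.12 and 13.33 after 24 h. One of the 3 dawn pools, replicate 1, had thus nearly reached the level of 6 h; without it the mature rise at 6 h was 3.64 in place of 2.50.

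The difference between 14 h and dusk for *asn1* was 6.20 ± 0.48 (SE) in the division zone, 6.75 ± 0.53 in elongating tissue and 5.48 ± 0.53 in the mature zone. Between 24 h and 14 h it fell by 2.78 ± 0.48 in the division zone (limma adjusted p = 3.93e-05) and by 2.55 ± 0.48 in the elongation zone (limma adjusted p = 0.000169), and the mature zone gave 0.36 ± 0.48 (limma adjusted p = 0.609). A second probe set of this gene, Zm.14903.1.A1_at, was no member and had a mean signal of 6.67. It gave 1.51 ± 0.19, 1.09 ± 0.21 and 0.65 ± 0.21 between 14 h and dusk in the 3 zones from base to blade. Both probe sets were called higher there in each zone, with sizes that differed widely. Between 24 h and 14 h the second probe set gave −0.80 ± 0.19, −0.46 ± 0.19 and −0.50 ± 0.19 from base to blade. Its elongation value was not called, and its mature value was called lower (limma adjusted p = 0.0473), unlike that of the member.

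The lysine-breakdown gene *lkrsdh1* differed between zones. Its signals after 14 h were 12.17, 12.58 and 11.84 in the division zone, against 7.09, 7.01 and 7.03 at dusk. In the elongation zone they were 12.47, 12.68 and 12.47 after 14 h and 7.18 and 7.36 at dusk. Those of the mature zone were 10.92, 11.13 and 11.13 after 14 h and 8.55 and 8.54 at dusk. The mature blade was thus above both growth zones at dusk and below them after 14 h, with no overlap. The differences were 5.15 ± 0.27, 5.27 ± 0.30 and 2.52 ± 0.30, and the mature one was smaller than that of the division zone by 2.63 (interaction −2.63 ± 0.40, limma adjusted p = 1.93e-06). After 24 h the division-zone pools spread from 8.69 to 10.09, and the gene fell by 2.84 ± 0.27 there relative to 14 h.

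The α-galactosidase gene *AGA3b* had the opposite contrast. In the mature zone its signals were 12.91, 12.92 and 12.76 after 14 h, against 7.74 and 7.61 at dusk. In the division zone they were 10.41, 10.22 and 9.88 after 14 h, against 7.89, 7.72 and 7.93 at dusk, and in the elongation zone 10.05, 10.04 and 9.83, against 7.91 and 7.69. The 3 zones lay between 7.61 and 7.93 at dusk, and the mature blade alone passed 12 after 14 h. The differences were 2.33 ± 0.15 in the division zone, 2.17 ± 0.17 in elongating tissue and 5.19 ± 0.17 in the mature zone. The mature difference exceeded that of the division zone by 2.87 ± 0.22 (limma adjusted p = 4.05e-12) and that of the elongation zone by 3.02 ± 0.24 (limma adjusted p = 6.46e-12). Much of the mature difference was there at dawn, with signals of 11.77, 11.40 and 11.42.

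The other α-galactosidase, *AGA2*, was higher after 14 h than at dusk by 2.91 ± 0.15, 2.57 ± 0.17 and 3.13 ± 0.17 from base to blade, with no difference between zones that passed the test. Its signal after 6 h had already reached 9.51 to 10.10 in the division zone, close to 9.64 to 10.07 after 14 h. Another gene of this family, *AGA1*, was not an early riser. Its difference between 14 h and dusk was 0.09 ± 0.14, 0.33 ± 0.16 and 0.33 ± 0.16, none of which passed the test, at a mean signal of 6.03, which is under the dim level of 6.19. The bZIP gene *GBF1* read 10.52, 10.85 and 10.30 after 14 h in the division zone, against 6.68, 6.63 and 6.78 at dusk, and 11.41, 11.22 and 11.32 in the mature zone, against 7.95 and 7.84. Its differences from base to blade were 3.86 ± 0.18, 3.90 ± 0.20 and 3.43 ± 0.20, again with no zone difference that passed the test. All 5 named members were called higher after 14 h in each zone, and the highest limma adjusted p of these tests was 9.43e-09. Ranked by the mean rise at 6 h, *lkrsdh1*, *asn1* and *GBF1* stood at places 21, 22 and 23 of 87, *AGA2* at 31 and *AGA3b* at 43.

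**Figure D3:**
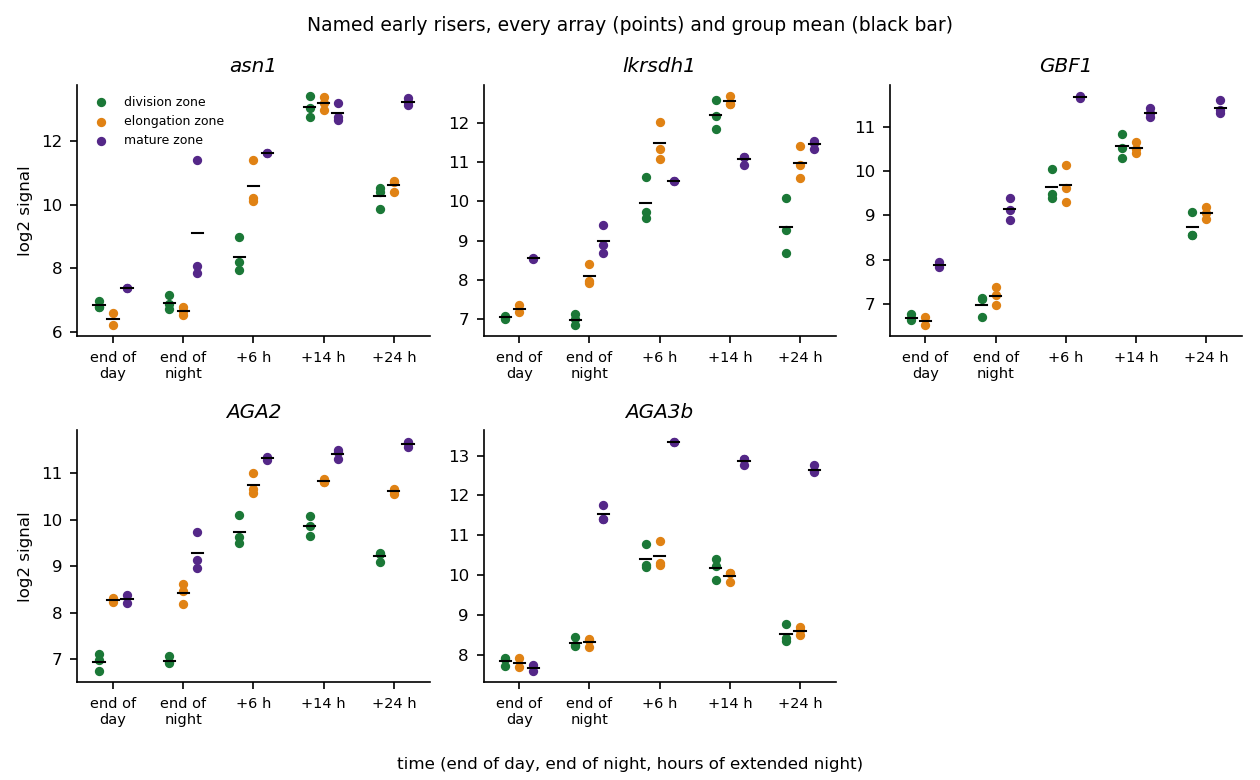
Log2 signal (vertical axis) of the 5 named early risers in every array (points, coloured by leaf zone) with group means (bars), at 5 times (horizontal axis). *asn1* passes 12 in all zones after 14 h, *lkrsdh1* is higher in the growth zones than in the mature zone after 14 h and *AGA3b* passes 12 in the mature zone alone, and in the growth zones every point after 24 h lies below every point after 14 h.

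Genes of the same pathways were compared from lists written with earlier results of these data known, against 20.6%, 21.7% and 34% of the array higher and 24%, 23.8% and 26.8% lower after 14 h. All 3 named genes of amino acid breakdown and asparagine synthesis were higher after 14 h than at dusk in every zone, 2 of them early risers, with medians of 5.15, 5.27 and 2.74 from base to blade. The other, *gdh1*, a glutamate dehydrogenase gene, had a rise at 6 h of 1.04, 1.61 and 0.18 from base to blade and so missed the rule in the mature zone. Between 24 h and 14 h *gdh1* rose by 0.95 ± 0.24 in the mature zone and fell by 1.26 ± 0.24 in the division zone. Of 2 glyoxylate cycle genes *mas1*, malate synthase, was called in all zones and *ICL*, isocitrate lyase, in none. The rise of *mas1* at 6 h was 0.16, 1.82 and 0.57, so it missed the rule in the division and mature zones, and between 24 h and 14 h it fell by 3.70 ± 0.37 in the division zone.

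Of 3 genes of energy signalling, 1, 2 and 3 were higher after 14 h in the division, elongation and mature zones and 1, 0 and 0 lower. Of 7 bZIP and G-box factors 4, 4 and 3 were higher and 1, 2 and 1 lower, with medians of 0.23, 0.31 and 0.26. *GBF1* was the early riser among them. Of 12 starch and sugar breakdown genes, 2 of them early risers, 4, 5 and 6 were higher and 1, 1 and 2 lower. Respiration genes numbered 8, with 1, 0 and 0 higher and 1, 4 and 4 lower. Of 8 protease genes 5, 5 and 2 were higher and 2, 2 and 4 lower, and of 17 stress genes 5, 3 and 9 were higher and 4, 4 and 6 lower. None of the energy signalling, respiration, protease and stress genes was an early riser, and no clock gene of the list was named on the array. The medians were 0.26, 0.54 and 0.42 for energy signalling, 0.09, 0.26 and 0.43 for starch and sugar breakdown, −0.06, −0.10 and −0.38 for respiration, 0.55, 0.37 and −0.44 for proteases and −0.05, −0.03 and 0.29 for stress. Between 14 h and dusk *thi1* of thiamine synthesis gave −0.78 ± 0.26, −1.24 ± 0.29 and −2.29 ± 0.29 from base to blade. Both probe sets named *aox1*, alternative oxidase, had mean signals over all arrays under the dim level, at 5.97 for Zm.13241.1.S1_at and 5.58 for Zm.13243.1.S1_at. In the mature zone, however, Zm.13241.1.S1_at had means of 7.52 at dusk, 8.93 after 6 h and 6.96 after 14 h. Zm.13243.1.S1_at had 6.69 there at dusk. The annotation assigns these probe sets to different loci. Between 14 h and dusk Zm.13241.1.S1_at gave 0.87 ± 0.28, −0.91 ± 0.31 and −0.56 ± 0.31, the last of which did not pass the test, and Zm.13243.1.S1_at gave −0.22 ± 0.12, which did not pass, −0.53 ± 0.13 and −1.32 ± 0.13. After 24 h *SnrK1* was lower than after 14 h in the growth zones, at −2.16 ± 0.16 and −1.92 ± 0.16, and higher in the mature zone, at 0.58 ± 0.16.

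Among unnamed members the largest mean rise at 6 h belonged to Zm.301.1.A1_a_at. In the division zone it read 4.81, 5.02 and 4.62 at dusk, 4.87, 5.07 and 5.05 at dawn, 9.85, 10.05 and 10.90 after 6 h, 13.02, 13.46 and 13.10 after 14 h, and 10.17, 11.02 and 10.36 after 24 h. The mature zone read 10.31 and 9.46 at dusk, 12.47, 9.82 and 9.70 at dawn, 13.33 and 13.42 after 6 h, 13.89, 13.80 and 13.85 after 14 h, and 13.91, 13.94 and 13.96 after 24 h. This transcript was under the dim level of 6.19 in the division zone at dusk and dawn and bright in the blade throughout, and with 13.29, 13.43 and 13.26 in the elongation zone all zones came within 1 of each other after 14 h. The difference between 14 h and dusk was 8.38 ± 0.42, 8.57 ± 0.47 and 3.96 ± 0.47 from base to blade. Since dusk in the elongation zone, at 4.67 and 4.83, was also under the dim level, the growth-zone values are bounds: against 6.19 they were at least 7.0 and 7.1. The highest signal of any maize probe set on any array was 14.4.

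The second, Zm.16227.1.A1_at, read 12.84, 12.96 and 12.67 after 14 h in the division zone, against 6.04, 6.20 and 6.00 at dusk. Its differences were 6.74 ± 0.36, 6.25 ± 0.41 and 5.56 ± 0.41, the first at least 6.63 against the dim level, and no difference between zones passed the test. Replicate 1 of the mature zone at dawn was again high, at 11.13 against 8.88 and 8.36. The third, Zm.3281.1.A1_at, took another course and is described next.

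Not called higher after 14 h than at dusk in every zone were 6 members. Zm.3281.1.A1_at read 8.30, 8.44 and 8.48 at dusk in the division zone, 5.98, 6.47 and 6.64 at dawn, 9.47, 9.64 and 9.51 after 6 h and 8.06, 8.12 and 7.96 after 14 h. It had thus dropped over the night, passed its dusk level after 6 h and come back under it after 14 h. Its difference between 14 h and dusk was −0.36 ± 0.17 in the division zone and −0.22 ± 0.19 in the elongation zone, neither of which passed the test, and 3.25 ± 0.19 in the mature zone. Zm.8205.1.A1_at had the same form, at −0.88 ± 0.14 (limma adjusted p = 3.74e-06), −0.58 ± 0.16 (limma adjusted p = 0.00253) and 1.31 ± 0.16 (limma adjusted p = 1.02e-08). It was the only member lower after 14 h in the growth zones, against 24% of the array in the division zone and 23.8% in the elongation zone.

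After 14 h 3 members were lower than at dusk in the mature zone, against 26.8% of the array. Zm.10187.1.S1_at read 8.93, 9.56 and 9.27 there after 14 h and 10.44 and 10.39 at dusk. Its difference was −1.16 ± 0.19 in the mature zone but 2.64 ± 0.17 in the division zone and 1.52 ± 0.19 in the elongation zone. Zm.18452.1.A1_at gave −0.48 ± 0.18 in the mature zone, against 2.02 ± 0.17 and 2.17 ± 0.18 in the division and elongation zones. Zm.4864.1.A1_at gave −0.74 ± 0.14 in the mature zone, with 0.04 ± 0.13 and 0.07 ± 0.14, neither called, in the division and elongation zones. At dawn it stood at 6.36, 6.76 and 6.24 in the mature zone, against 11.72 and 11.77 at dusk, a difference of −5.30. The sixth, Zm.949.1.A1_at, was named after its values were seen; it was higher in the growth zones by 2.62 ± 0.22 and 2.55 ± 0.25 and gave −0.19 ± 0.25 in the mature zone. Of the 87 members 8 had a dawn mean at least 1 below dusk in some zone, and all 6 of these exceptions were among the 8. The rule took dawn as its baseline, so a member that dropped over the night could pass by a return to its dusk level. This overlap is therefore a description.

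**Figure D4:**
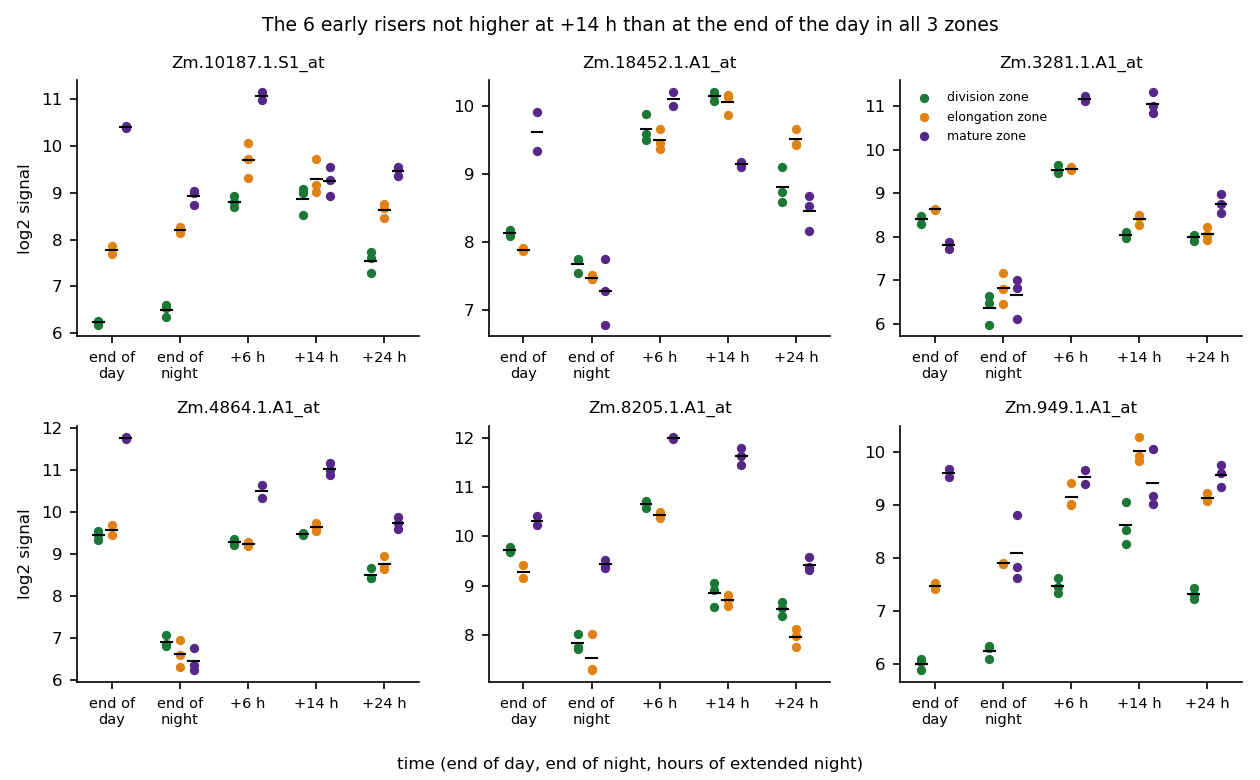
Log2 signal (vertical axis) in every array (points, coloured by leaf zone) with group means (bars) at 5 times (horizontal axis) for the 6 early risers not called higher after 14 h than at dusk in all 3 zones. Zm.4864.1.A1_at falls to 6.24 to 6.76 at dawn in the mature zone, against 11.72 and 11.77 at dusk.

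After 24 h of extended night most members were lower than after 14 h in the growing leaf base, and few were in the blade. In the division zone 78 members were lower after 24 h than after 14 h and 0 higher (limma), with a median difference of −1.42, or 0.374-fold. In the elongation zone 72 were lower and 1 higher, with a median of −0.97, or 0.511-fold. In the mature zone 8 were lower and 10 higher, with a median of 0.11, or 1.08-fold. Over the array 12.4%, 9.9% and 13.7% of probe sets were called lower in these comparisons and 13.5%, 12.2% and 16.8% higher. A call with a fall of at least 1 was made for 59, 41 and 4 members, against 2.22%, 1.54% and 1.59% of the array.

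The 24 h and 14 h arrays differ in clock hour as well as in the length of darkness, which cannot be told apart here. This comparison also shares the 14 h arrays with the one above. In the division zone replicate 2 after 14 h was the highest of its group for 78 members, yet leaving out single arrays kept the number of members called between 72 and 79 there and between 63 and 75 in the elongation zone. In the mature zone the balance of 10 higher and 8 lower had no settled direction: without replicate 1 after 14 h it was 5 and 9, without replicate 3 after 14 h 6 and 8, and without replicate 2 after 24 h 4 and 7.

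The most frequent pattern, in 55 members, was lower after 24 h in both growth zones with no call in the mature zone, against 5% of the array. A further 8 members were lower in both growth zones and higher in the mature zone, against 1.46% of the array, and 6 were lower in all 3 zones, against 0.854% of the array. The member higher after 24 h in the elongation zone was Zm.3906.1.A1_at, with 11.56, 11.83 and 11.60 after 24 h and 10.97, 10.52 and 10.95 after 14 h, a difference of 0.85 ± 0.20 (limma adjusted p = 0.00167). For *GBF1* the differences were −1.82 ± 0.18, −1.47 ± 0.18 and 0.11 ± 0.18 from base to blade, and for *AGA3b* −1.65 ± 0.15, −1.36 ± 0.15 and −0.22 ± 0.15, the mature ones not called. For *AGA2* only the division zone was called, at −0.65 ± 0.15; the elongation zone gave −0.22 ± 0.15 (limma adjusted p = 0.346). The median of the members' differences between 24 h and dawn, which share the clock hour, was 1.75, 1.91 and 2.16 from base to blade; this is a description.

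The zones were then compared directly. The difference of the changes (24 h minus 14 h) between the mature and division zones was called for 74 members, 72 of them higher in the mature zone, against 15.4% of the array higher and 14% lower; the median was 1.47. Between the mature and elongation zones it was called for 66, 63 of them higher in the mature zone, against 14.2% higher and 13.2% lower; the median was 1.15. The members lower in the mature zone were Zm.3281.1.A1_at and Zm.8205.1.A1_at in both contrasts, and Zm.3906.1.A1_at against the elongation zone. In the mature zone Zm.3281.1.A1_at gave −2.29 ± 0.17 and Zm.8205.1.A1_at −2.21 ± 0.14 between 24 h and 14 h; these are the 2 members that after 14 h were called above dusk in the mature zone alone. These tests were added after the separate zones had been seen. Between the elongation and division zones 4 members were called, all higher in the elongation zone, against 0.49% of the array higher and 0.427% lower: Zm.10079.1.A1_a_at, Zm.3365.1.A1_at, Zm.7612.1.A1_at and ZmAffx.528.1.A1_at. That number was 0 without replicate 2 of the division zone after 14 h, 1 without either replicate 1 of the division zone after 24 h, replicate 3 of the elongation zone after 14 h or replicate 3 of the elongation zone after 24 h, and 2 without replicate 1 of the division zone after 14 h, replicate 2 of the elongation zone after 14 h or replicate 1 of the elongation zone after 24 h.

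For the change between 14 h and dusk the zones differed less one-sidedly. Members with dim dusk signals enter these counts with bounds. Between the mature and division zones 48 members differed, 20 higher and 28 lower in the mature zone (23.0% and 32.2% of the members), against 29.7% and 22.5% of the array. Between the mature and elongation zones 47 differed, 18 higher and 29 lower (20.7% and 33.3%), against 23.8% and 20.7% of the array. Between the elongation and division zones 14 differed, 8 higher and 6 lower in the elongation zone (9.20% and 6.90%), against 3.36% and 3.2% of the array. The last number was 7 and 8 without replicate 1 or 2 of the elongation zone at dusk, and 9 without replicate 3 of the elongation zone after 14 h. With signals under 6.19 raised to that level, the members' median for mature minus division was −0.02 in place of −0.16. For mature minus elongation it was −0.03 in place of −0.27, and for elongation minus division 0.01 in place of 0.02. The counts were not redone at that level.

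**Figure D5:**
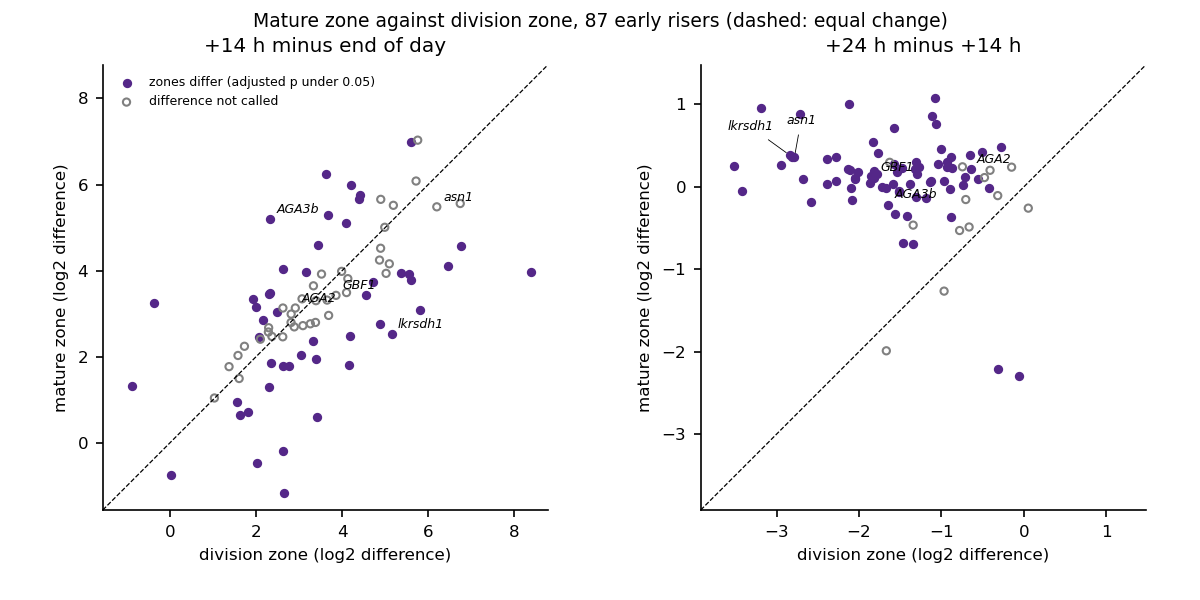
Log2 difference in the mature zone (vertical axis) against that in the division zone (horizontal axis) for the 87 early risers, 14 h minus dusk (end of day) on the left and 24 h minus 14 h on the right; filled points are the 48 and 74 members whose change differed between these zones, and the dashed line marks equal change. Points on the left scatter about the line, while on the right most lie above it.

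Across the 87 members the change between 14 h and dusk correlated at r = 0.93 between the division and elongation zones, 0.63 between division and mature, and 0.70 between elongation and mature. For the change between 24 h and 14 h the values were 0.86, −0.28 and −0.15. These are descriptions across probe sets, which are not independent, and the 2 changes share the 14 h arrays.

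Before the night the members tended to be brighter in the blade. At dusk 46 members were higher in the mature than in the division zone and 16 lower (limma), against 35% and 38.7% of the array, with a median of 0.70. Against the elongation zone 47 were higher in the mature zone and 15 lower, against 36.1% and 35.9%, with a median of 0.77. Between the elongation and division zones 18 were higher in the elongation zone and 16 lower, against 17.9% and 21%, with a median of −0.01. When each array was centred on its own median, the all-probe-set median shifted from 0.01 to 0.17 between the mature and division zones and from 0.07 to 0.22 between the mature and elongation zones. Among named members *lkrsdh1* exceeded its division-zone level in the mature zone by 1.50 ± 0.30, *AGA2* by 1.34 ± 0.17 and *GBF1* by 1.20 ± 0.20, while *asn1* gave 0.52 ± 0.53 and *AGA3b* −0.17 ± 0.17, neither called.

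The gap between the mature and division zones also moved with time, as a description. Its median over the members was 0.70 at dusk, 1.85 at dawn, 2.03 after 6 h, 0.59 after 14 h and 2.19 after 24 h. The mature mean was above the division mean for 60, 76, 79, 58 and 80 members at these times. The gap between the elongation and division zones stayed between −0.01 and 0.42.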

How the data were processed

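The deposited values are log2 signals, which the authors made with RMA, a method that corrects background, normalizes arrays to 1 distribution and summarises each probe set, per the submitters' processing notes; its version is not given in the sources used here. Of 17734 probe sets, 113 control and 66 reporter probe sets were left out, leaving 17555. The columns of 3 of 45 labelled samples held no values, 0 columns belonged to other series, and 42 arrays were used as deposited.

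One limma model (version 3.58.1, lmFit then eBayes, R 4.3.3) held the means of all 15 groups and left 27 residual degrees of freedom. Each comparison had its own Benjamini-Hochberg adjustment across the 17555 probe sets, and a member was called under 0.05. Errors are SE of the fit, whose precision is limited by how many arrays each group has. Simulated data served to test the code. Gene names come from the array's annotation (1452 probe sets with 1 gene) with symbols updated through RefSeq's table of Zm-B73-REFERENCE-NAM-5.0.

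Members, gene lists and tests were chosen with earlier results of these data known. Named are the members with 1 gene symbol, the 3 unnamed members with the largest mean rise, the 3 probe sets on either side of the threshold, 8 set pathway genes, and members called in a direction that 5 or fewer show. The labels do not say that a replicate number marks a shared batch, and same-numbered pools deviated together (r over 0.1 in all 3 pairs) in 3 of 10 pairs of groups between zones and 1 of 4 along time. Alternatives were centring, other thresholds, no dim probe sets, only the groups compared, array weights, a replicate block and each array left out.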

Additional observations from a re-analysis of the deposited data

Results flagged for a closer look

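What singled out the following results was a test of the difference between zones itself. No test for outlying arrays was run in groups of 3 or fewer arrays, and single arrays that stood apart are described above. The change between 14 h and dusk differed between the elongation and division zones for 14 members, between the mature and elongation zones for 47 and between the mature and division zones for 48. Of the members 9.20%, 20.7% and 23.0% were higher in the first-named zone, against 3.36%, 23.8% and 29.7% of the array. Lower were 6.90%, 33.3% and 32.2%, against 3.2%, 20.7% and 22.5% of the array. In both mature contrasts the members' share higher was thus below that of the array and their share lower above it. Members with dim dusk signals enter these counts with bounds. With signals under 6.19 raised to that level, the members' medians were −0.03 for mature minus elongation and −0.02 for mature minus division. The change between 24 h and 14 h differed for 4, 66 and 74 members in the same order of contrasts, against 0.49%, 14.2% and 15.4% of the array higher and 0.427%, 13.2% and 14% lower.

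For single genes the values are differences of log2 changes (limma), the mature zone's change minus that of the other zone. For the change between 14 h and dusk, *AGA3b* gave 3.02 against the elongation zone and 2.87 against the division zone, and Zm.3281.1.A1_at gave 3.47 and 3.61, so both changed more in the mature zone. *lkrsdh1* gave −2.75 and −2.63, and Zm.301.1.A1_a_at gave −4.61 and −4.42, so these changed less there. The growth-zone signals of Zm.301.1.A1_a_at at dusk were under the dim level, and raised to it they gave −3.17 and −3.04.

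For the change between 24 h and 14 h, against the elongation and division zones, *asn1* gave 2.91 and 3.15, *lkrsdh1* 1.95 and 3.23, *GBF1* 1.58 and 1.93, *AGA3b* 1.15 and 1.43, and Zm.301.1.A1_a_at 1.59 and 2.77. *AGA2* gave 0.86 against the division zone, and against the elongation zone it was not called. In each of these the change was less negative in the mature zone, or above 0. The opposite held for Zm.3281.1.A1_at, at −1.95 and −2.24, which came down in the mature zone. The *asn1* values are those of the member probe set alone. The gene's second probe set, Zm.14903.1.A1_at, was called lower after 24 h than after 14 h in the mature zone, at −0.50 ± 0.19. It gave −0.80 ± 0.19 in the division zone and −0.46 ± 0.19, not called, in the elongation zone.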

How the results depend on the processing

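Of 804 values under other settings, 781 were labelled the same. For single genes this meant the same side of the threshold, and the same direction where called. Counts had to lie within 1.5 times with no reversed majority. Medians of the members had to lie within 0.233, the members' median residual SD, so a median near 0 could change sign. A threshold of 1.5 left 47 early risers, one of 0.8 gave 114, and leaving out single arrays gave 82 to 91. For 24 h against 14 h in the mature zone (18 called, 10 higher) the majority turned to lower with only the groups compared (12 called, 5 higher) and with array weights (8 called, 3 higher); leaving out single arrays gave 11 to 20. Between the elongation and division zones at dusk, 34 members became 52 with only the groups compared. The zone difference of 14 members in the change between 14 h and dusk became 23 with only the groups compared and 22 with array weights, where 10 were higher and 12 lower, and 7 to 14 without single arrays. That of 4 members in the change between 24 h and 14 h became 2 with only the groups compared, 13 with array weights and 0 to 6 without single arrays. *AGA2* in the elongation zone (−0.22 between 24 h and 14 h) was called with only the groups compared. The cause was not tested. With a replicate block 84, 84 and 83 members stayed higher after 14 h, and 78 and 72 lower after 24 h in the growth zones; in the mature zone 8 were higher and 8 lower. Same-numbered pools of the division and elongation zones deviated together in all 3 pairs at dawn (r 0.21 to 0.33), after 14 h (0.14 to 0.46) and after 24 h (0.22 to 0.42), and so did those of the division zone after 24 h and 14 h (0.12 to 0.36). In the other pairs of groups at least 1 pair was at 0.1 or under, or fewer than 3 pairs could be formed. The block moved no count of members called by over 1.5 times; the zone difference of 4 members stayed at 4 with a fixed block and was 5 with a random one. Raising signals under the dim level to it, also chosen after seeing the data, gave a division-zone median of 3.07 in place of 3.33 between 14 h and dusk. A fit without replicate 3 of the mature zone at dawn, chosen after seeing the data, gave the same 84, 84 and 83.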
